A study of Homo sapiens with 70 samples.

Results

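The genes of the cytosolic ribosomal proteins were followed through RNA-seq counts of 70 libraries in 11 groups. They were chosen by their symbols alone, as RPL or RPS followed by a number and optionally A or X, together with RPLP0, RPLP1, RPLP2 and RPSA. This gave 77 of the 44503 genes counted, namely 43 proteins of the large subunit, 3 of its stalk and 31 of the small subunit. Of these, 76 passed the filter on low counts in every comparison.

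The study asked what the chromatin protein HMGA1 does to gene expression in oncogene-induced senescence (OIS) and in a lung cancer line. Every IMR90 library came from human lung fibroblasts carrying pLNCX2 ER:HRAS G12V, a RAS oncogene fused to an oestrogen receptor domain and switched on by 4-hydroxytamoxifen (4OHT). In the first experiment, Grow cells (growing, with the empty vector pMSCV miR v) and Grow-shA1 cells (pMSCV miR shHMGA1, an shRNA against HMGA1) were set beside OIS and OIS-shA1 cells with the same vectors and 100 nM 4OHT for 6 days, with 8 libraries per group. In the second, with 5 libraries per group, Grow-v-v cells (day 0) were set beside cells given 100 nM 4OHT for 6 days, called OIS-v-v without a knock-down, OIS-shCEBPB or OIS-shp53 with a single one, and OIS-shCEBPB-shp53 with both. They carried pSuper and pMSCV miR vectors that were empty or held an shRNA against CEBPB (pSuper) or p53 (pMSCV miR). In the third, 7 libraries came from the non-small cell lung carcinoma line H1299 with pMSCV miR v and 6 from H1299-shA1 cells with pMSCV miR shHMGA1. The labels name 1 shRNA construct per gene, delivered by retroviral vectors into whole cultures, and growing cells of the first experiment have no time or dose in the labels.

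A cytosolic ribosome is built from ribosomal RNAs and a fixed set of proteins that are needed in matched amounts. The mRNAs of these proteins carry a terminal oligopyrimidine (TOP) motif, a C at the first base followed by a run of pyrimidines, through which mTORC1 and the binding protein LARP1 set their translation. The transcription factor MYC drives ribosome production, and free RPL5 and RPL11 bind the ubiquitin ligase MDM2 when ribosome assembly is disturbed. Reads that map to more than one place were not counted in these tables, and most ribosomal protein genes have many processed copies in the genome, so each level is partial and was compared only within one gene. Reads over exons of overlapping genes were not counted in the first experiment either, per its table header. By that annotation, 33 members have no overlapped exon base, the median member has 2.72% of its exon bases overlapped, and RPL10 has 40.8% overlapped, by DNASE1L1.

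The start sites show the motif that most of these genes share. In RefSeq (GRCh38.p14), 62 of the 77 members had a start region, and 52 of the 62 (83.9%) held an unbroken run of at least 7 pyrimidines within 5 bases of an annotated start, against 12.8% of 27305 genes. A C stood at an annotated start in 79.0% of the members and in 18% of all genes. The runs were 7 to 25 bases long, with a median of 12. Shown here are 25 bases (10 before the annotated start and 15 from it) of members whose levels are described below, chosen because they moved most, moved least or lack the motif. The capitals mark the pyrimidine run.
RPL10: ggaggagcgCCTCTTTCCCTTCggt
RPSA: tgccgcctgTCTTTTCCgtgctacc
RPS28: gaagcacgtgaCTCCTCTCCgccag
RPS24: aatcgtggTTCTCTTTTCCTCCTTg
RPL35A: gggcctcgTCCTTCTCTTaccgcca
RPL11: gctccgCTTTCTCTTCCTgctctcc
RPLP0: ggcgcgaggCCCTTCTCTCgccagg
RPL13A: aaaCCTCCTCCTTTTCCaagcggct
RPS19: ccccgtcgTTCCCTTTCCCCTggct
RPS4X: ctccagccccaatttctacgcgcac
The windows lie at chrX:154398367-154398391 (+) for RPL10, chr3:39406710-39406734 (+) for RPSA, chr19:8321486-8321510 (+) for RPS28, chr10:78033853-78033877 (+) for RPS24 and chr3:197950180-197950204 (+) for RPL35A. Those of RPL11, RPLP0, RPL13A, RPS19 and RPS4X lie at chr1:23691796-23691820 (+), chr12:120201097-120201121 (-), chr19:49487598-49487622 (+), chr19:41860245-41860269 (+) and chrX:72277234-72277258 (-). RPS4X held no such run, and RPL10, RPL11 and RPS19 also had other annotated starts without one.

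Other short motifs were searched on both strands of the regions from 250 bases before to 50 bases after the start. CCGGAAG, the core bound by ETS-family factors, was in 35.5% of the 62 members and 12.2% of all genes. AAGATGGC, the core of the YY1 motif, was in 9.68% and 3.52%, the E-box CACGTG bound by MYC and related factors in 6.45% and 8.77%, and TATAAA in 8.06% and 14%. A match is only a description of these letters. RPL23, RPL23A, RPL30, RPL37, RPL5, RPL7, RPL8, RPS15A, RPS2 and RPS20 were among the members not matched.

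HMGA1 and CEBPB were low where the labels say so. Median HMGA1 was 469 CPM, the counts scaled by library size, in Grow and 35.8 in Grow-shA1, 745 in OIS and 59.7 in OIS-shA1, and 1915 in H1299 and 366 in H1299-shA1. CEBPB was 259 to 329 CPM in OIS-v-v, 26.6 to 42.7 in OIS-shCEBPB and 28.4 to 38.9 in OIS-shCEBPB-shp53. CPM here and below are scaled with TMM factors within a table, so values of different experiments are not comparable. Library totals ran from 1903607 counts in OIS replicate 4 to 24890797, and the lowest of the other libraries had 13904974. None of 198 pairs of libraries of a group agreed within sampling noise. The replicates are called biological in the sources, and the p-values measure the spread between these libraries. Collagen markers of fibroblasts were abundant in IMR90 and near 0 in H1299, and keratins KRT8 and KRT18 were abundant in H1299. Not every marker followed this split. VIM, on the fibroblast and carcinoma lists, was at 1633 to 2186 CPM in the H1299 and H1299-shA1 libraries. CD68, listed for cell types that the cultures should lack, was at 37.4 to 74.1 CPM there.

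The share of a library's counts on the 77 genes was 1.68% ± 0.112 (SD, n = 8) in Grow, 1.57% ± 0.075 in Grow-shA1, 2.20% ± 0.1 in OIS and 2.08% ± 0.081 in OIS-shA1. In the second experiment it was 2.90% ± 0.714 (SD, n = 5) in Grow-v-v, 2.84% ± 0.280 in OIS-v-v, 2.88% ± 0.237 in OIS-shCEBPB, 2.73% ± 0.146 in OIS-shp53 and 2.95% ± 0.171 in OIS-shCEBPB-shp53. By their counts over all genes, replicates 1 to 3 and replicates 4 and 5 formed 2 sets in each group of that experiment. The main fits took the 5 libraries of a group as independent, so their p-values do not account for these sets. The library with the highest share in the second experiment did not meet Dixon's criterion used below. Grow-v-v replicate 5 had 4.08% of its counts on these genes and the other 4 Grow-v-v libraries 2.32% to 3.05%, and it also had the highest HMGA1 (1875 CPM against 934 to 1303) of its group. Counts of calls in OIS-v-v against Grow-v-v are therefore given with and without it. The share was 3.33% ± 0.128 (SD, n = 7) in H1299 and 3.40% ± 0.237 (SD, n = 6) in H1299-shA1.

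**Figure D1:**
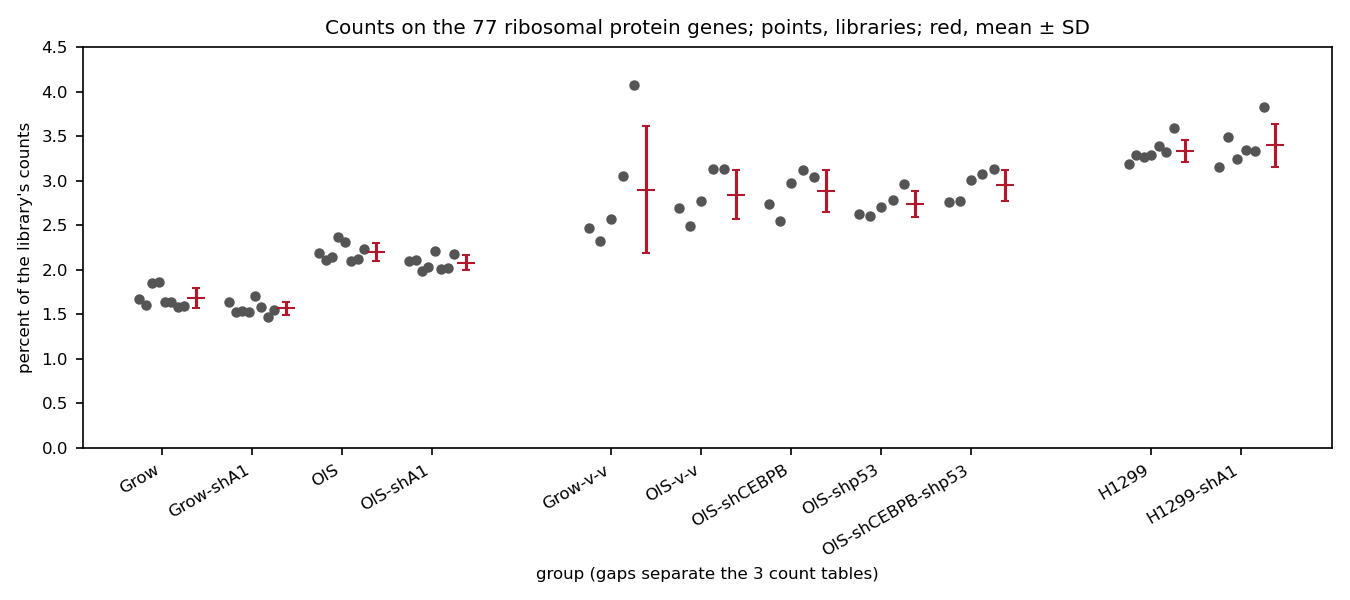
Percent of each library's counts that fell on the 77 ribosomal protein genes, one point per library in replicate order, with the mean and SD of each group in red and gaps between the 3 count tables. OIS and OIS-shA1 libraries lie above all Grow and Grow-shA1 libraries, and Grow-v-v replicate 5, at 4.08%, lies above the rest of its group.

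Most ribosomal protein genes were modestly higher in OIS than in Grow cells of the first experiment. Of the 76 tested, 57 were called higher (edgeR quasi-likelihood test, Benjamini-Hochberg adjusted p under 0.05 over all genes) and 3 lower, RPL10 and RPSA among them, where 38.8% of all 13304 genes tested were called higher and 35.9% lower. The median log2 fold change of the members was 0.25, against 0.03 over all genes, and the middle range of the members ran from 0.13 to 0.32. The change reached small and large subunit alike, with 23 of 30 small subunit genes called higher and 2 lower and 34 of 43 large subunit genes called higher and 1 lower. None of the 3 stalk genes was called (RPLP0 0.02 ± 0.04, RPLP1 0.03 ± 0.05 and RPLP2 0.05 ± 0.05, log2 ± SE). In bulk libraries a lower level cannot be told apart from fewer cells of a type or less RNA per cell, and normalised levels are relative to the other mRNAs of the library.

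**Figure D2:**
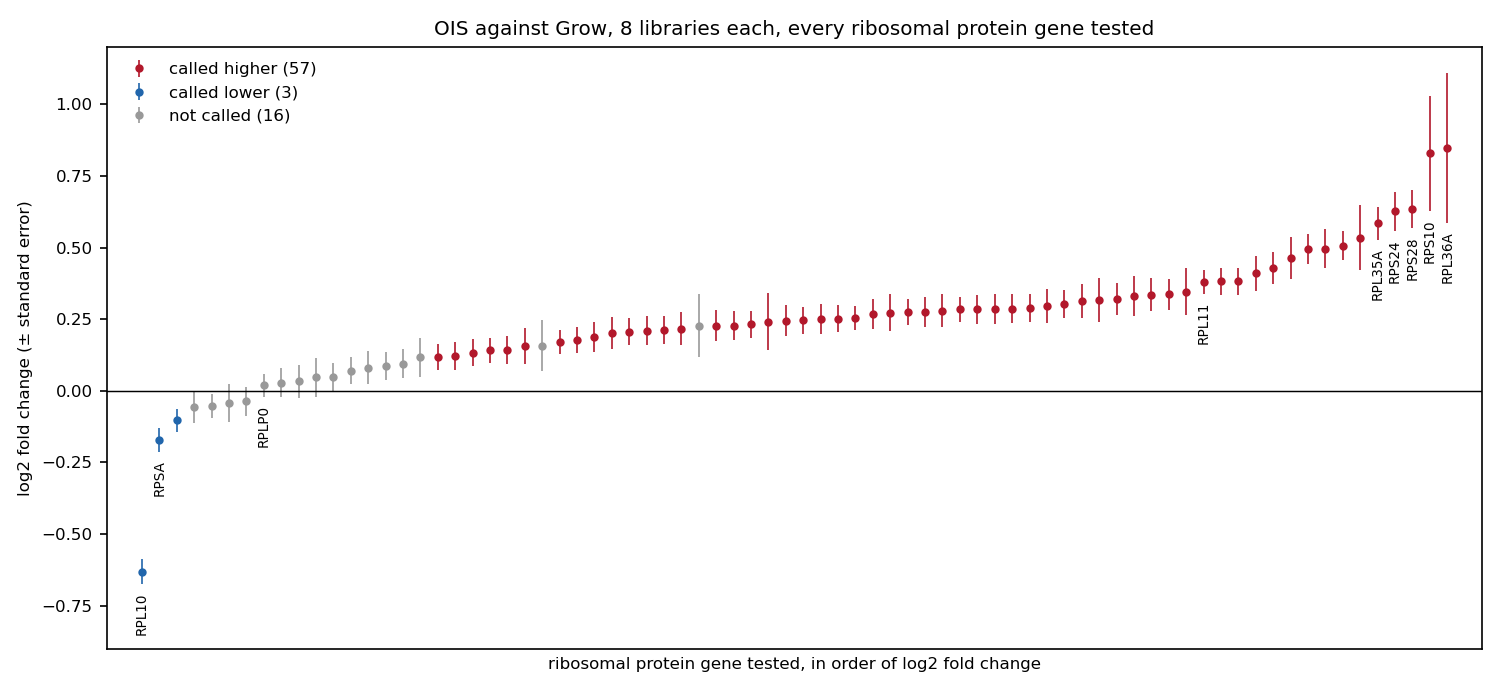
Log2 fold change with its standard error of each of the 76 tested ribosomal protein genes in OIS against Grow (8 libraries each), ordered by size and coloured by the edgeR call. The genes form a continuum between about 0 and 0.6 on the log2 scale, with RPL10 alone far below 0 at -0.63 and the nearly uncounted RPS10 and RPL36A at the top with wide errors.

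The largest rises among well counted genes were RPS28, RPS24 and RPL35A. RPS28, a small subunit protein at the mRNA exit, had a lowest, median and highest level of 46, 48.3 and 57 CPM in Grow and of 63.8, 74.8 and 89.6 in OIS. The groups did not overlap, and the log2 fold change was 0.63 ± 0.07 (adjusted p = 9.2e-10), or 1.55-fold. RPS24, whose mutation causes Diamond-Blackfan anaemia, had 283, 302 and 337 CPM in Grow and 398, 440 and 645 in OIS (0.63 ± 0.07, adjusted p = 3.2e-09). RPL35A had 195, 202 and 214 CPM in Grow and 269, 287 and 398 in OIS (0.58 ± 0.06, adjusted p = 5.8e-10). For all 3 genes the lowest OIS library was above the highest Grow library. RPL29 (0.51 ± 0.05), RPL38 (0.50 ± 0.07), RPL24 (0.46 ± 0.07) and RPL26 (0.43 ± 0.06) were among the next and did not overlap either. These were named after their values were seen. In all, 14 members had every OIS library above every Grow library and 1 had every one below, while 19% and 24.7% of all genes did.

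RPL10, a large subunit protein that joins late in assembly, went the other way. It had a lowest, median and highest level of 376, 406 and 456 CPM in Grow and of 245, 260 and 280 in OIS. The groups were fully apart, and the level in OIS was 0.646 of that in Grow (log2 -0.63 ± 0.04, adjusted p = 1.1e-13). RPL10 lies at chrX:153618315-153637504 (+) in hg19. RPSA, the small subunit protein also known as the laminin receptor precursor, had 232, 246 and 267 CPM in Grow and 197, 214 and 233 in OIS (-0.17 ± 0.04, adjusted p = 0.00064), and these groups touched at their ends. The direction of RPSA depended on the scaling, since with library sizes alone it was 0.02 on the log2 scale while the median of all genes moved from 0.03 to 0.22.

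RPL11, one of the MDM2 binders, had 338, 346 and 391 CPM in Grow and 427, 450 and 470 in OIS, with no overlap (0.38 ± 0.04, adjusted p = 1.7e-09). Its partner RPL5 had 377, 398 and 440 CPM in Grow and 419, 464 and 578 in OIS, with overlap (0.25 ± 0.05, adjusted p = 0.00011). RPS14, the haploinsufficient gene of the 5q- syndrome, changed by 0.30 ± 0.05, RPL22, an RNA-binding protein dispensable for the ribosome itself, by 0.29 ± 0.05, and the X-linked RPS4X by 0.27 ± 0.04. RPS6, the substrate of the S6 kinases, changed by 0.20 ± 0.06 and RPL3, a protein of the peptidyl transferase centre, by 0.14 ± 0.04. All of these were called higher with adjusted p of 0.0044 or less.

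3 members were counted at very low levels in the first experiment. RPL36A had 0.379 to 0.917 CPM in Grow and 0.443 to 1.68 in OIS (0.85 ± 0.26, adjusted p = 0.0047), and RPS10 had 0.567 to 1.85 and 1.63 to 2.73 (0.83 ± 0.20, adjusted p = 0.00053). RPL17 had 3.74 to 6.59 CPM in Grow and 4.77 to 8.74 in OIS (0.54 ± 0.11, adjusted p = 0.00011). Each was called higher although the libraries of the groups overlapped. Exon bases overlapped by other genes came to 17.1% in RPL36A, 28.9% in RPS10 and 36% in RPL17.

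The pyrimidine run did not separate the members by their change. Of the 47 matched members called higher in OIS, 38 held a run and 9 did not. Both matched members called lower held one, and so did 12 of the 13 matched members with no call. RPL10, the member with the largest fall, and RPL35A, among those with the largest rises, both start within such a run, as the sequences above show.

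The cultures also differed in their cell type markers between Grow and OIS. All 7 fibroblast markers were called lower in OIS, and their summed level ran from 37409 to 46702 CPM in Grow and from 5511 to 6811 in OIS. Of 6 markers of epithelial, endothelial and immune cells, 2 were tested and called higher, the summed level being 16.3 to 24.6 CPM in Grow and 45.3 to 59.5 in OIS. Nearly all of that sum was CD68, while CDH1 was at 0 in every OIS library and the medians of CDH5, PTPRC and EPCAM were at most 0.43 CPM in both groups. Ribosomal protein pseudogenes, listed by symbol, together took 0.0052% of counts in Grow and 0.0152% in OIS, on average. That rise was not general, as 3 of the 10 tested were called higher and 2 lower. Their median log2 fold change was 0.12, with a range of -0.88 to 6.59. The part of these differences in the results for the ribosomal protein genes was not tested. Without OIS replicate 4, the shallow library, 57 members were called higher and 3 lower as before.

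The second experiment repeated the comparison of OIS with growing cells in cells with 2 empty vectors, and there the members as a group lay at 0. Of 76 tested, 1 was called higher (RPL17) and 1 lower (RPL10) in OIS-v-v against Grow-v-v, where 22.7% of 13344 genes were called higher and 23.2% lower. The median log2 fold change was 0.00, against 0.01 over all genes. This depended on Grow-v-v replicate 5. That library was singled out for its high share on these same genes, so leaving it out raises the members' fold changes by construction. The emphasis on that refit was chosen after seeing the data, and it is no independent repeat of the first experiment. Without this library, 19 members were called higher and 1 lower (24.2% and 24.6% of all genes), with a median of 0.15. With the replicate number as a block, 5 were called higher and 2 lower (24.8% and 24.9% of all genes), and with number 5 left out as well, 25 and 2 (26.2% and 26.6% of all genes), an alternative chosen after seeing the data.

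RPL10 and RPL17, with large changes in the first experiment, were also called here with all libraries, and the experiments share no library. RPL10 had 530, 549, 587, 678 and 877 CPM in the 5 Grow-v-v libraries and 420, 395, 416, 360 and 458 in OIS-v-v. The groups did not overlap (-0.64 ± 0.14, adjusted p = 0.0021, and -0.51 ± 0.10 without Grow-v-v replicate 5). RPL17 had 20.7, 19.9, 21, 27.6 and 33.4 CPM in Grow-v-v and 34.9, 30.2, 32.6, 33.7 and 35.1 in OIS-v-v (0.45 ± 0.14, adjusted p = 0.02). Its groups overlapped only through Grow-v-v replicate 5. RPS28 had 153, 142, 150, 171 and 249 CPM in Grow-v-v and 219, 198, 225, 201 and 223 in OIS-v-v, and RPL35A had 229, 196, 223, 254 and 351 and then 315, 284, 324, 304 and 322. In both genes 4 of the 5 Grow-v-v libraries lay below every OIS-v-v library and replicate 5 lay above them all. With all libraries neither was called without the block. With the replicate number as a block RPS28 changed by 0.34 ± 0.11 (adjusted p = 0.036) and RPL35A by 0.35 ± 0.11 (adjusted p = 0.028). Without replicate 5, which raises such values by construction, RPS28 changed by 0.47 ± 0.08 (adjusted p = 0.00034) and RPL35A by 0.46 ± 0.08 (adjusted p = 0.00076). RPSA had 328, 289, 327, 430 and 554 CPM in Grow-v-v and 264, 242, 265, 306 and 360 in OIS-v-v. The call depended on the fit, as its change was -0.41 ± 0.18 (adjusted p = 0.073) without the block and -0.39 ± 0.08 (adjusted p = 0.004) with it, and without Grow-v-v replicate 5 it was -0.25 ± 0.14 (adjusted p = 0.15).

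**Figure D3:**
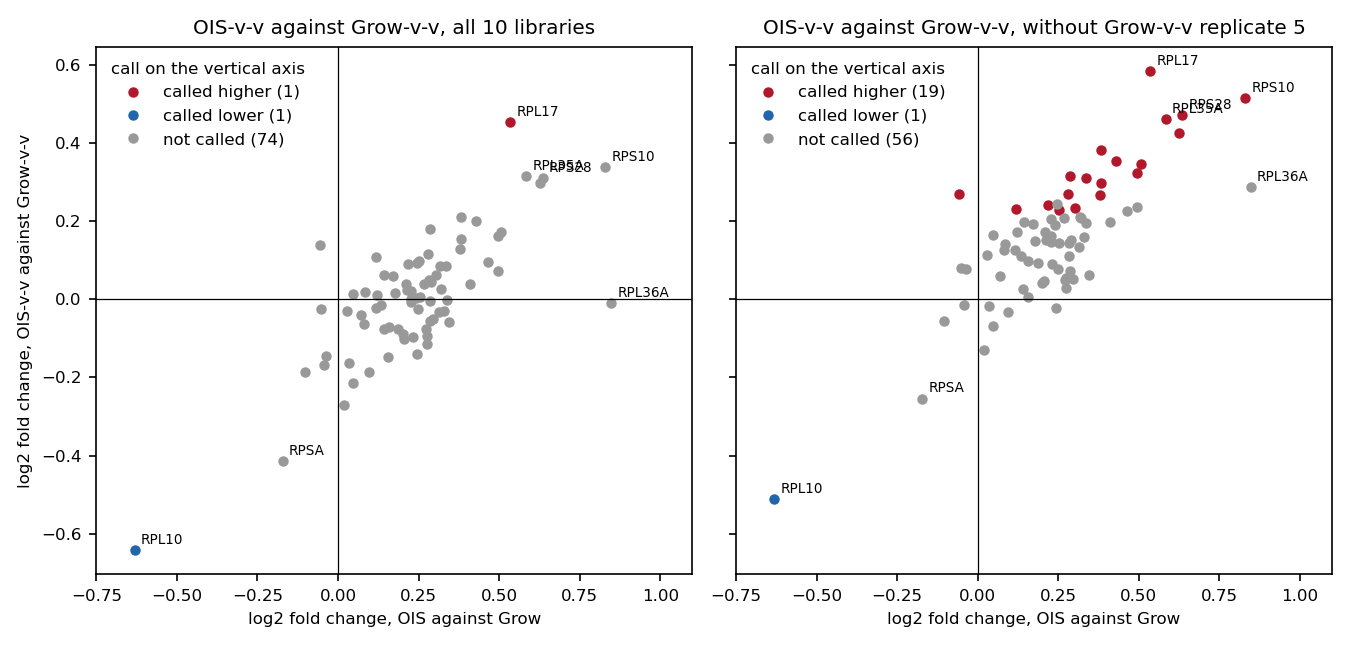
Log2 fold change of each member in OIS-v-v against Grow-v-v (vertical) and in OIS against Grow (horizontal), with all 10 libraries of the second experiment on the left and without Grow-v-v replicate 5 on the right. Points are coloured by the call on the vertical axis. RPL10 lies low on both axes, and 1 member is called higher on the left and 19 on the right.

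Of the 19 members called higher without Grow-v-v replicate 5, 18 (94.7%) were also called higher in OIS against Grow, where they made up 31.6% of the 57. Since 57 of all 76 members were called higher there, most of any list of members would be shared, and the agreement was not tested. Across the 76 members the fold changes of both experiments had a Spearman correlation of 0.63 with all libraries and 0.67 without that library, as a description across genes that share libraries within each experiment. With all libraries the signs were the same for 44 of 76. RPLP0 had 788, 757, 855, 1045 and 1329 CPM in Grow-v-v and 750, 696, 749, 827 and 903 in OIS-v-v (-0.27 ± 0.15, adjusted p = 0.17, and -0.13 ± 0.11 without Grow-v-v replicate 5). RPL5 (-0.03 ± 0.12), RPL11 (0.13 ± 0.14), RPS14 (0.06 ± 0.15), RPL22 (-0.00 ± 0.10), RPS4X (-0.09 ± 0.14), RPS6 (-0.09 ± 0.15) and RPL3 (-0.07 ± 0.12) did not pass. RPL11 and RPS14 passed without replicate 5, at 0.27 ± 0.09 and 0.23 ± 0.09. The difference between the experiments itself was not tested. Fibroblast markers in Grow-v-v summed to 39229 to 51371 CPM and in OIS-v-v to 13638 to 21084, with 6 of 7 called lower. Markers of other cell types summed to 29.3 to 48 CPM and 48.6 to 90.6, with 1 of 2 tested called higher and CDH1 at 0 throughout. Their part in these results was not tested.

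**Figure D4:**
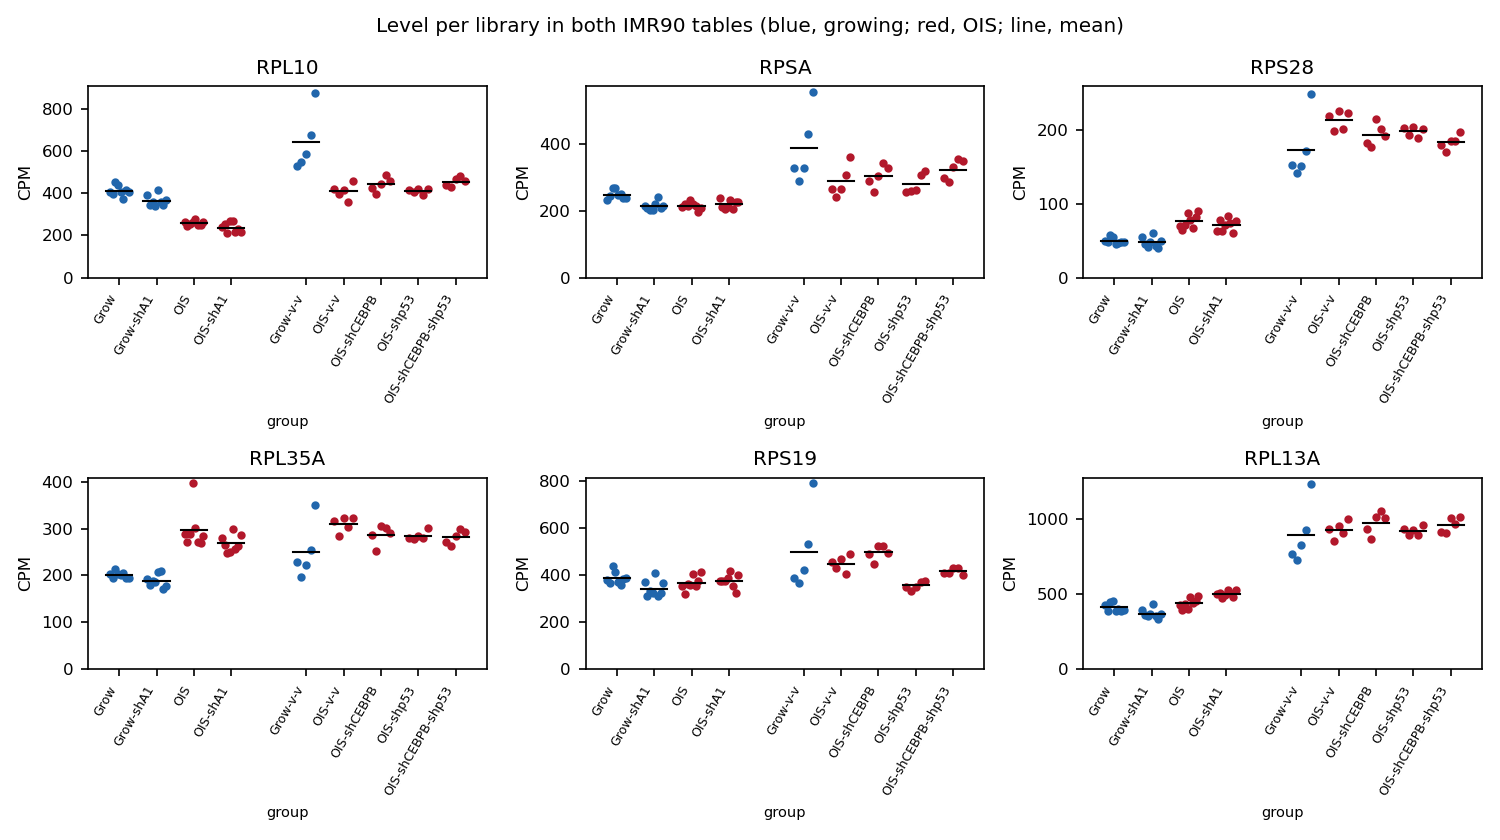
CPM of 6 ribosomal protein genes in each library of both IMR90 experiments, growing cells in blue and OIS cells in red, with the group mean as a line and a linear axis from 0. RPL10 is lower in OIS in both, RPS28 and RPL35A are higher in OIS apart from the one high Grow-v-v library, and RPS19 is lowest in OIS-shp53 within its experiment.

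Knocking down HMGA1 in growing cells lowered many ribosomal protein genes slightly. In Grow-shA1 against Grow, 37 of 76 were called lower and 0 higher, where 15.1% of 13072 genes were called lower and 14.8% higher, 29.9% in all. By DESeq2 the count of members called higher was 0 too, with 4116 of all genes called in either direction. The median log2 fold change was -0.12, against 0.01 over all genes, and 72 of the 76 estimates were below 0. The calls covered 12 of 30 small subunit, 23 of 43 large subunit and 2 of 3 stalk genes. This comparison shares the Grow libraries with OIS against Grow. With library sizes alone 23 members were called lower, and 4021 of all genes in either direction. Cell type markers moved in the same comparison. 5 of 7 fibroblast markers were called lower and 1 higher, their sum being 37409 to 46702 CPM in Grow and 27807 to 33497 in Grow-shA1. KRT8 (-0.91) and KRT18 (-0.40) were called lower and CD68 (0.23) higher, the sum of the 6 markers of other cell types being 16.3 to 24.6 and 19.5 to 26 CPM, and their part in the result was not tested.

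The largest falls were in RPL17, RPS23, RPL32, RPL7A and RPSA. RPL7A had a lowest, median and highest level of 423, 453 and 497 CPM in Grow and of 365, 394 and 418 in Grow-shA1. It was the member whose groups did not overlap, as did 4.2% of all genes in that direction (-0.22 ± 0.04, adjusted p = 0.00014). RPSA had 232, 246 and 267 CPM in Grow and 201, 210 and 241 in Grow-shA1 (-0.21 ± 0.04, adjusted p = 0.00023). RPS23, at the decoding centre, changed by -0.23 ± 0.05, RPL32 by -0.22 ± 0.05 and RPL17, at 2.75 to 4.48 CPM in Grow-shA1, by -0.46 ± 0.13. RPL10 had 376, 406 and 456 CPM in Grow and 342, 359 and 415 in Grow-shA1 (-0.17 ± 0.04, adjusted p = 0.0045). RPS14 (-0.18 ± 0.04), RPL22 (-0.17 ± 0.04), RPL5 (-0.13 ± 0.04), RPLP0 (-0.13 ± 0.04), RPS6 (-0.12 ± 0.04), RPL11 (-0.11 ± 0.04) and RPL3 (-0.11 ± 0.04) were also called lower. RPS4X did not pass (-0.10 ± 0.04, adjusted p = 0.07).

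In OIS cells the HMGA1 knock-down left most of the members without a call. In OIS-shA1 against OIS, 5 were called higher and 2 lower of 76, where 18.8% of 13327 genes were called higher and 17.1% lower, and the median log2 fold change was -0.00, as over all genes. The split depended on the scaling, with 4 called higher and 4 lower with upper-quartile factors and 0 and 22 with library sizes alone. Of all genes these scalings called 4846 and 5590 in either direction. RPL13A, whose protein is also released from ribosomes in interferon-treated cells, had 392, 439 and 486 CPM in OIS and 476, 503 and 526.2 in OIS-shA1 (0.18 ± 0.04, adjusted p = 0.0018). The stalk gene RPLP1 (0.16 ± 0.05), RPL27A (0.13 ± 0.04) and RPL23, another MDM2 binder (0.11 ± 0.04), were also called higher. RPL24 (-0.18 ± 0.07, adjusted p = 0.041) and RPL10 (-0.13 ± 0.05, adjusted p = 0.046) were called lower. The calls of RPL23 and RPL24 each held in 8 of 16 fits that left out 1 library. RPL10 had 245, 260 and 280 CPM in OIS and 212, 234 and 268 in OIS-shA1, with overlap, and its call held in 7 of 16 fits that left out 1 library (adjusted p 0.015 to 0.11). No member had groups that did not overlap, where 5.37% of all genes lay apart above and 3.92% below. The other genes described throughout lay between -0.04 ± 0.05 (RPL22) and 0.10 ± 0.04 (RPLP0, adjusted p = 0.057). Cell type markers moved here too. Of 7 fibroblast markers 3 were called higher and 2 lower (log2 -0.64 to 2.10), their sum being 5511 to 6811 CPM in OIS and 5993 to 7026 in OIS-shA1. Of 2 tested markers of other cell types 1 was called lower. Their part in the result was not tested.

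The effect of the knock-down differed between growing and OIS cells for a part of the genes. The interaction term, fitted over all 32 libraries of the first experiment, was called higher for 20 of 76 members and lower for 0, against 12.2% and 11.4% of all genes, with a median of 0.12 against -0.01. Higher here means a knock-down effect that was more positive in OIS than in Grow. All 3 stalk genes were among them (RPLP0 0.22 ± 0.05, RPLP1 0.24 ± 0.07 and RPLP2 0.22 ± 0.07), with 9 of 30 small subunit and 8 of 43 large subunit genes. RPL13A (0.33 ± 0.07, adjusted p = 0.00022), RPL27A (0.31 ± 0.05, adjusted p = 4.3e-05), RPS23 (0.29 ± 0.09), RPS27A, which encodes ubiquitin fused to a ribosomal protein (0.27 ± 0.09), and RPSA (0.25 ± 0.06) had the largest terms. Of the 20, 15 were called lower with shA1 in Grow and 5 called higher with shA1 in OIS. The number was 25 without OIS replicate 4 and 2 with library sizes alone, a scaling that moved the median of all genes to -0.13. Of all genes 3449 and 4344 were called in these fits, in either direction.

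**Figure D5:**
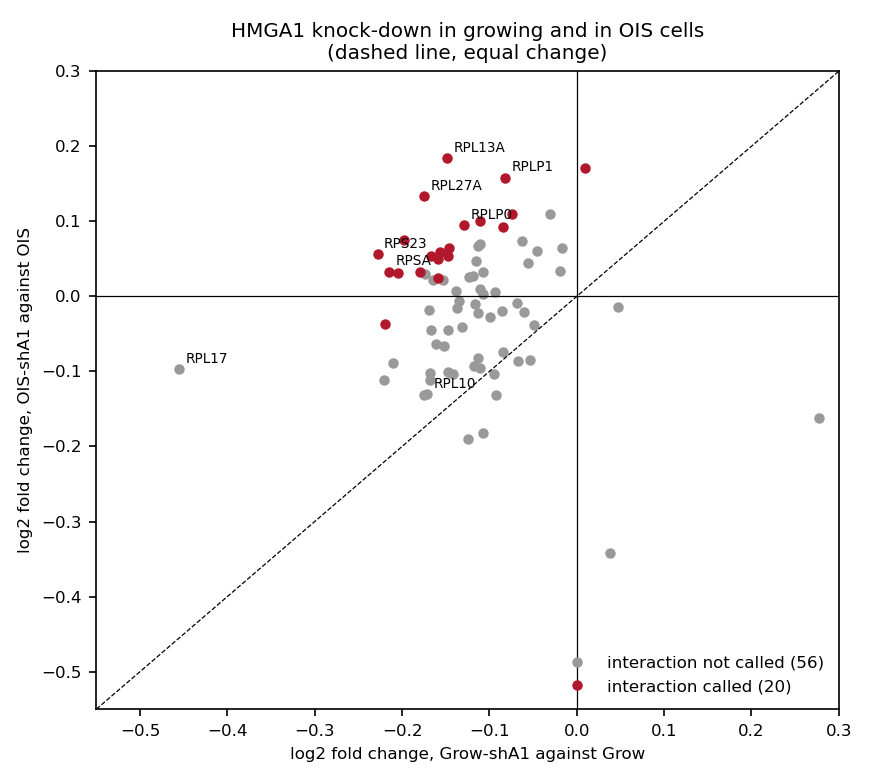
Log2 fold change of each member on HMGA1 knock-down in OIS (vertical) against that in Grow (horizontal), with the 20 members whose interaction was called in red and the line of equal change dashed. The red points lie above the dashed line, mostly below 0 in Grow and near or above 0 in OIS.

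Knock-down of CEBPB in OIS cells changed no ribosomal protein gene past the threshold. In OIS-shCEBPB against OIS-v-v, 0 of 76 were called higher and 0 lower by edgeR, where 9.09% of 13396 genes were called higher and 8% lower. An unadjusted edgeR p under 0.05 was found for 4 of the 76 members and for 3910 of the 13396 genes. DESeq2 called 1 member lower, and 2653 of all genes in either direction. The median log2 fold change was -0.06, against -0.00 over all genes, and 65 of the 76 estimates were below 0. The same replicate numbers deviated together in this experiment, though replicates 1 to 3 and replicates 4 and 5 also formed 2 sets, which a block absorbs as well. With the number as a block 13 were called lower and 0 higher (15% and 16.9% of all genes). The 13 fell by small amounts, for example RPL26 (-0.18 ± 0.05, adjusted p = 0.011), RPL11 (-0.16 ± 0.04, adjusted p = 0.014) and RPS10 (-0.18 ± 0.05, adjusted p = 0.022). RPL11 had 435, 405, 476, 508 and 455 CPM in OIS-v-v and 387, 372, 444, 427 and 422 in OIS-shCEBPB, lower in each of the 5 numbers though the groups overlapped. RPLP0 (0.08 ± 0.09), RPSA (0.07 ± 0.11), RPL10 (0.10 ± 0.07), RPL5 (-0.06 ± 0.08), RPS6 (-0.02 ± 0.11), RPL3 (0.01 ± 0.08), RPL22 (0.00 ± 0.07), RPS14 (-0.04 ± 0.07) and RPS4X (-0.08 ± 0.09) did not pass without the block.

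Knock-down of p53 in OIS cells lowered RPS19. In OIS-shp53 against OIS-v-v, edgeR called 1 of 76 lower and 0 higher, where 1.97% of 13378 genes were called lower and 2.47% higher (4.44% in all). DESeq2 called 3 members lower and 0 higher, and 1092 of all genes in either direction. An unadjusted edgeR p under 0.05 was found for 12 of the 76 members and for 2645 of the 13378 genes. The median was -0.09, against -0.00 over all genes. RPS19, the gene most often mutated in Diamond-Blackfan anaemia, had 454, 428, 467, 406 and 489 CPM in OIS-v-v and 349, 334, 350, 369 and 374 in OIS-shp53. The groups did not overlap, and the change was -0.34 ± 0.06 (adjusted p = 0.0084), or -0.34 ± 0.04 with the block (adjusted p = 0.00021). One fit over all 5 groups of the experiment ended the call (adjusted p = 0.18). RPL36, named after its values were seen, was the other member with groups apart (3.36% of all genes were apart in that direction), from 254 to 300.1 CPM in OIS-v-v and 231 to 253.8 in OIS-shp53 (adjusted p = 0.097 without the block and 0.0098 with it). With the block 12 members were called lower and 0 higher (10.7% and 12% of all genes). RPL11 changed by -0.15 ± 0.06 (adjusted p = 0.2, and 0.049 with the block). Without the block RPL5 changed by -0.00 ± 0.07, RPLP0 by -0.01 ± 0.07, RPL10 by 0.00 ± 0.06, RPSA by -0.04 ± 0.11, RPS6 by -0.04 ± 0.09, RPL3 by -0.09 ± 0.07, RPL22 by -0.06 ± 0.06, RPS14 by -0.06 ± 0.05 and RPS4X by -0.05 ± 0.08.

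In the double knock-down few members were called lower. In OIS-shCEBPB-shp53 against OIS-v-v, 6 of 76 were called lower and 0 higher, where 16.5% of 13388 genes were called lower and 17.1% higher. An unadjusted edgeR p under 0.05 was found for 9 of the 76 members and for 5778 of the 13388 genes. DESeq2 called 7 members lower and 0 higher, and 4744 of all genes in either direction. The median was -0.07, against -0.01 over all genes. RPS28 had 219, 198, 225, 201 and 223 CPM in OIS-v-v and 180, 170, 185, 185 and 197 in the double knock-down. It was the member whose groups did not overlap, as did 10.8% of all genes in that direction (-0.23 ± 0.06, adjusted p = 0.0088). RPL26 had 139, 129, 145, 180 and 159 CPM and then 117, 118, 126, 138 and 135 (-0.26 ± 0.09, adjusted p = 0.036), and RPL11 had 363, 353, 392, 403 and 416 in the double knock-down (-0.25 ± 0.07, adjusted p = 0.016). RPS10 (-0.24 ± 0.09), RPS13 (-0.21 ± 0.05) and RPS27 (-0.20 ± 0.07) were the others. Of 10 fits that left out 1 library, 4 kept the call of RPL26 and 3 that of RPS10, while all 10 kept those of RPS28, RPL11 and RPS13. One fit over all groups of the experiment called 0 members lower, and 4410 of all genes in either direction. With the block 10 were called lower and 1 higher, RPSA (0.16 ± 0.05, adjusted p = 0.029), against 21.4% and 21.9% of all genes. RPSA (0.16 ± 0.10), RPL10 (0.14 ± 0.07), RPLP0 (0.06 ± 0.07), RPL5 (-0.01 ± 0.07), RPS6 (-0.01 ± 0.09), RPL3 (-0.06 ± 0.07), RPL22 (-0.03 ± 0.07), RPS14 (-0.02 ± 0.05) and RPS4X (-0.04 ± 0.08) did not pass without the block.

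The 3 knock-downs of the second experiment share the OIS-v-v libraries, so only the values of each are set side by side. RPL11 changed by -0.16, -0.15 and -0.25 with shCEBPB, shp53 and both, and RPS19 by 0.14, -0.34 and -0.12. The interaction of the knock-downs was called for 0 of 76 members in either direction by edgeR and by DESeq2. Over all genes edgeR called 0.0216% in each direction, 6 genes or 0.0432% in all, and DESeq2 called 30. An unadjusted edgeR p under 0.05 was found for 2 members and for 682 of 13873 genes. The median of the interaction over the members was 0.09.

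In H1299 carcinoma cells the HMGA1 knock-down moved few members. In H1299-shA1 against H1299, 5 were called higher and 2 lower of 76, where 8.65% of genes were called higher and 6.93% lower, and the median log2 fold change was 0.03. KRT8 (-0.65) and KRT18 (-0.35) were called lower and VIM (0.23) higher in the same comparison, the sum of these 3 markers being 2478 to 2838 CPM in H1299 and 2542 to 2891 in H1299-shA1, and their part in the result was not tested. RPL22, a tumour suppressor lost in several cancers, had a lowest, median and highest level of 121, 130 and 140 CPM in H1299 and of 106, 113 and 119 in H1299-shA1. The groups did not overlap (-0.21 ± 0.04, adjusted p = 0.0013). RPS26 had 39.4, 46.4 and 50.6 CPM and then 33.1, 37.5 and 46.9 (-0.23 ± 0.07, adjusted p = 0.03). RPS12 (0.17 ± 0.05), RPL41 (0.17 ± 0.05), RPS20 (0.17 ± 0.05), RPL31 (0.16 ± 0.05) and RPL13 (0.14 ± 0.04) were called higher, and the calls depended on single libraries, as only 2 were called higher and 1 lower without H1299 replicate 3 or without H1299-shA1 replicate 6. RPLP0 (0.10 ± 0.04, adjusted p = 0.077), RPL10 (0.07 ± 0.05), RPL5 (-0.02 ± 0.05), RPL11 (-0.00 ± 0.06), RPSA (-0.01 ± 0.10), RPS6 (0.04 ± 0.06), RPL3 (0.01 ± 0.04), RPS14 (0.04 ± 0.06) and RPS4X (0.04 ± 0.05) did not pass.

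Across the 8 comparisons of 2 groups, 73 of the 76 members (96.1%) were called at least once, as were 90.9% of the 11598 genes tested in all 8, so the count does not set the members apart. RPL15, RPL28 and RPS9 were never called. RPL10 was called lower in 4 comparisons, namely OIS against Grow, OIS-v-v against Grow-v-v, and shA1 in Grow and in OIS. The last of these calls did not hold without single libraries, and 6 other members were called in 3 comparisons. These comparisons share control libraries in the first experiment.

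Genes that assemble ribosomes were also higher in OIS. Of 51 nucleolar assembly factors, 48 were called higher and 1 lower in OIS against Grow, with a median of 0.69, led by RRP9 (1.49 ± 0.07), WDR12 (1.18 ± 0.06) and BOP1 (1.17 ± 0.10), while SBDS, which releases EIF6 from the large subunit, was lower (-0.30 ± 0.04). In OIS-v-v against Grow-v-v, 24 were called higher and 0 lower, with a median of 0.33 (28 and 0, with a median of 0.43, without Grow-v-v replicate 5). In OIS-shA1 against OIS the direction was the other, with 1 called higher and 22 lower, BOP1 among them (-0.51 ± 0.10), and in Grow-shA1 against Grow 9 were called lower and 0 higher. Of 15 RNA polymerase I genes, 9 were called higher and 1 lower in OIS (5 and 2 in OIS-v-v, and 6 and 1 without Grow-v-v replicate 5), including POLR1C (1.41) and POLR1B (1.33), with UBTF lower (-0.35). The shA1 comparisons called 0 and 1 of them in Grow and 1 and 3 in OIS. These lists and those that follow were chosen with earlier results of the data known and are given as counts. The shares of all genes called higher and lower were 38.8% and 35.9% in OIS against Grow and 22.7% and 23.2% in OIS-v-v. Without Grow-v-v replicate 5 they were 24.2% and 24.6%. With shA1 they were 14.8% and 15.1% in Grow and 18.8% and 17.1% in OIS.

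MYC was higher in OIS in both experiments (1.5 and 1.48 on the log2 scale, the second 1.71 without Grow-v-v replicate 5), and lower with shA1 in Grow (-0.56) and in OIS (-0.36), with shCEBPB (-0.53) and with both knock-downs (-0.30). Of the 7 regulators listed, LARP1 (0.22), MTOR (0.36) and RPTOR (0.30) were also called higher in OIS against Grow, EIF4EBP1 and both S6 kinase genes were not called, and in OIS-v-v only MYC was called, with and without that library. With shA1, 1 regulator was called higher and 1 lower in Grow and in OIS. Other translation genes known to carry a TOP motif followed the ribosomal proteins in part, with 10 of 16 called higher and 4 lower in OIS, such as NACA (0.49), EIF3H (0.44) and EEF2 (0.38) against EIF3F (-0.35), TPT1 (-0.25) and EEF1A1 (-0.14). They were called higher and lower for 4 and 2 in OIS-v-v (7 and 1 without Grow-v-v replicate 5), 0 and 5 in Grow-shA1 and 2 and 1 in OIS-shA1. Of 75 mitochondrial ribosomal protein genes, 53 were called higher and 6 lower in OIS, 11 and 6 in OIS-v-v (26 and 6 without Grow-v-v replicate 5), 2 and 4 in Grow-shA1 and 5 and 6 in OIS-shA1. With all libraries the mitochondrial counts in OIS-v-v lay below the shares of all genes, 22.7% higher and 23.2% lower, and those with shA1 were below them too.

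FAU (0.24), which encodes a ribosomal protein fused to a ubiquitin-like protein, was called higher in OIS against Grow and not in OIS-v-v, with or without Grow-v-v replicate 5. The paralogous genes moved separately. RPL39L was lower in OIS in both experiments (-1.62 and -1.75, the second -1.58 without Grow-v-v replicate 5), RPL36AL was lower in the first (-0.37), and RPL22L1 (0.36) and RPL7L1 (0.59) were higher. RPS27L was lower with shp53 (-0.98) and with both knock-downs (-0.55) and higher with shCEBPB (0.37), while the member RPS27 changed by -0.12, -0.20 and -0.11 in the same order, called with both and, with the replicate block alone, with shCEBPB (adjusted p = 0.049). In H1299-shA1 none of the 7 paralogs, 16 other TOP genes or 15 RNA polymerase I genes tested was called by edgeR, with 2, 1 and 3 of them at an unadjusted p under 0.05 (not run with DESeq2). Over all genes 8.65% were called higher and 6.93% lower there, and 4390 of 14840 had an unadjusted edgeR p under 0.05. In that comparison 1 assembly factor and 7 mitochondrial ribosomal protein genes were called higher and 0 lower, and 2 regulators were called higher and 1 lower. In the 3 knock-downs of the second experiment, in the order shCEBPB, shp53 and both, 1, 0 and 1 assembly factors were called higher and 5, 2 and 3 lower. RNA polymerase I genes were called higher for 0, 0 and 1 and lower for 2, 0 and 0, and other TOP genes higher for 0 in each and lower for 0, 0 and 2. Mitochondrial ribosomal protein genes were called higher for 2, 0 and 7 and lower for 4, 4 and 8. Of all genes 9.09%, 2.47% and 17.1% were called higher and 8%, 1.97% and 16.5% lower in these 3 knock-downs. Of 42 pseudogenes listed, 10 passed the filter in OIS against Grow, with 3 called higher and 2 lower.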

How the data were processed

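RNA-seq counts of 70 libraries were read from 3 tables of whole-number counts per gene, which the authors deposited after aligning reads to hg19 with STAR and counting with featureCounts on GENCODE annotation (the header of one table gives version 1.5.2). Multi-mapped reads were not counted. Groups were taken from the labels. Each comparison was fitted on its own groups with edgeR 4.0.16 in R 4.3.3 (quasi-likelihood test, TMM factors, filterByExpr, no covariate), and p-values were adjusted by Benjamini-Hochberg over all genes tested, with a threshold of 0.05. The SE is the absolute log2 fold change divided by the square root of F. The members and lists (paralogs, other TOP genes, RNA polymerase I, assembly factors, mitochondrial ribosomal proteins, regulators, pseudogenes and markers) were chosen with earlier results of these data known. Named genes were the 5 largest rises and falls called per comparison, 10 members named throughout, and members with very low counts. Alternatives were DESeq2 1.42.0, other scalings, no filter, a fold of 1.5, all groups in 1 fit, a replicate block and leaving out each library. Same-numbered libraries deviated together in the second experiment (correlations 0.14 to 0.59), so the number was used as a block, and not in the others (lowest -0.15). In the second experiment, replicates 1 to 3 and replicates 4 and 5 formed 2 sets in each group. The chi-square per degree of freedom was 2.07 between OIS-v-v replicates 1 and 3 and 43.7 between 1 and 4. Only 2 or 3 of 5 libraries matched best with their own number, so pairing cannot be told apart from this split. Results for some genes are not reported here. The scripts were tested on simulated counts. Starts came from RefSeq (GRCh38.p14).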

Additional observations from a re-analysis of the deposited data

Results flagged for a closer look

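In groups of 4 to 10 libraries the highest or lowest value was compared with the rest by Dixon's criterion, which chance meets in about 1 group in 20, and 8 of 132 groups met it. The median log2 CPM of the members was 8.59 in H1299 replicate 7 (8.48 to 8.52 in the others) and 8.78 in H1299-shA1 replicate 7 (8.43 to 8.56). RPL5 was at 412 CPM in Grow-shA1 replicate 6 (347 to 376 in the others) and at 578 in OIS replicate 4 (419 to 473). RPSA was at 241 CPM in Grow-shA1 replicate 6 (201 to 219). RPS6 was at 941 CPM in OIS replicate 4 (689 to 773) and at 1515 in H1299-shA1 replicate 7 (1085 to 1213). RPS14 was at 267 CPM in OIS replicate 4 (316 to 358), the library with 1903607 counts.

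The effect of HMGA1 knock-down differed between OIS and growing cells by the interaction term (edgeR, log2 scale) for 20 members, all called higher. Of all genes 12.2% were called higher and 11.4% lower. Most of the members' calls were lost with library sizes alone, as given above. Among the genes named the interaction term was 0.33 for RPL13A, 0.31 for RPL27A, 0.29 for RPS23, 0.27 for RPS27A, 0.25 for RPSA, 0.22 for RPLP0 and 0.21 for RPS14.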

How the results depend on the processing

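Requiring a fold of 1.5 as well left 4 members higher and 1 lower in OIS against Grow, 0 in the interaction of shA1 with OIS, and 0 higher and 0 lower with shA1 in Grow, OIS and H1299 and with shp53 or both knock-downs, and 0 higher in OIS-v-v. Over all genes, in either direction, it left 4855 of 13304 in OIS against Grow and 783 of 13903 in the interaction. With shA1 it left 737 of 13072 in Grow, 981 of 13327 in OIS and 358 of 14840 in H1299. It left 235 of 13378 with shp53, 1790 of 13388 with both knock-downs and 3650 of 13344 in OIS-v-v. With library sizes alone, OIS against Grow had 1 member lower and a median of 0.43 (all genes 0.22), with RPSA at 0.015, reversed. That scaling gave 23 lower in Grow-shA1, 0 higher and 22 lower with a median of -0.088 in OIS-shA1, 1 higher and 0 lower in the double knock-down, and 2 interactions with a median of 0.0069. Of all genes, in either direction, it called 10524 in OIS against Grow, 4021 in Grow-shA1, 5590 in OIS-shA1, 4691 in the double knock-down and 4344 interactions. DESeq2 called 4 lower in OIS-shA1, 1 in OIS-shCEBPB and 3 in OIS-shp53, and upper-quartile factors 4 lower in OIS-shA1 and 3 in the double knock-down. Of all genes, in either direction, DESeq2 called 4998, 2653 and 1092 in these comparisons. Upper-quartile factors called 4846 in OIS-shA1 and 4449 in the double knock-down. With the replicate number as a block in the second experiment, 5 were higher and 2 lower in OIS-v-v, 13 lower with shCEBPB, 12 with shp53, and 10 lower and 1 higher with both. The block without number 5 gave 25 and 2. One fit over all groups gave 5 higher and 3 lower in OIS-v-v and 0 lower with shp53 and with both. Of all genes it called 7670, 510 and 4410 in these 3 comparisons, in either direction. The causes were not tested. Leaving out 1 library at a time gave 4 to 8 higher and 0 to 6 lower in OIS-shA1 (8 higher without OIS replicate 4, 6 lower without OIS-shA1 replicate 5), 0 to 19 higher and 1 to 2 lower in OIS-v-v (19 without Grow-v-v replicate 5, 0 without replicates 1, 2 or 3), 0 to 2 higher and 3 to 7 lower in the double knock-down, and 2 to 5 higher and 1 to 2 lower in H1299. Over all genes, calls with shp53 went from 594 to 1092 with DESeq2 and 3037 with the block, and the interaction of the knock-downs from 6 to 30 and 104. Of 2397 alternatives for the genes reported, 2201 kept the call or its absence, 162 lost the call, 33 gained one and 1 reversed. A gene with no call in either fit counted as kept whatever its direction, so changes of sign among uncalled genes are not in these numbers. A share over nuclear genes alone was not run. The depth of OIS replicate 4 limits what that library shows.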
